A study of Rattus norvegicus with 6 samples.

Results

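Chemokines, interleukins and their receptors were described in the skeletal muscle of newborn rats of low birth weight (LBW). They were the genes whose symbol starts with Ccl, Cxcl, Ccr, Cxcr or Il followed directly by a digit. Of 130 such symbols in a RefSeq gene table of the rat assembly GRCr8, 82 had a row among the 26299 features tested, each with 1 row, and the other 48 symbols had no matched row and were not analysed here. The 82 genes were 25 chemokine ligands, 12 chemokine receptors, 21 interleukin ligands, 21 interleukin receptors or receptor subunits, and 3 antagonists or binding proteins. No filter on low signals was applied, so that all 82 were tested.

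Skeletal muscle RNA of 3 LBW pups and 3 average birth weight (ABW) pups was hybridized to NimbleGen single-colour (Cy3) arrays, 1 array for each pup. All 6 were 1-day-old male Wistar rats, and the muscle taken was soleus with gastrocnemius. The LBW pups lay between percentiles 5 and 25 of birth weight. For the ABW pups, which the labels call new born controls, the sample characteristics give percentiles 25 to 75 and the treatment protocol gives 50 to 75. No treatment, diet or surgery is named for either group. The labels do not give the litter of each pup, so that p-values measure the spread between these pups only.

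Chemokines are small secreted proteins that draw leukocytes along a gradient, and they bind G protein-coupled receptors on the cells that respond. Interleukins are secreted signals between leukocytes and tissue cells, most of which act through receptors of several chains and JAK-STAT signalling or, in the interleukin 1 family, through Myd88 and NF-kappa-B. In muscle, both families are known for the recruitment of monocytes and macrophages during repair, and interleukin 6 is also made by contracting fibers.

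All 7 genes that passed the threshold were lower in LBW pups, and none was higher. They were the chemokine ligands *Ccl2*, *Ccl6*, *Ccl11*, *Ccl21* and *Cxcl13*, the interleukin *Il33*, and the chemokine receptor *Ccr2*. Their signals were 1.54- to 2.03-fold lower than in ABW pups. The threshold, an unadjusted p under 0.05 by limma (a linear model for each feature with a variance moderated over all features) and a fold change of at least 1.5, was passed in the lower direction by 7 of 82 genes (8.54%) and by 1.89% of all features. In the higher direction it was passed by 0 of 82 genes and by 2.38% of all features. After Benjamini-Hochberg adjustment over all 26299 features, no feature (0%) passed an adjusted p of 0.05, and the adjusted p of the 7 genes ran from 0.214 to 0.378 by limma. At an unadjusted p under 0.05 by limma alone there were 14 of the 82 genes, 13 lower and 1 (*Ccl25*) higher. Of all 26299 features, 3250 had such a p, and their split by direction was not counted.

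The promoters of 3 of the lower ligands, *Ccl6*, *Cxcl13* and *Il33*, are shown to compare how they are built. That of *Ccl9* is shown because it lies next to *Ccl6* and had the opposite sign, though it did not pass the threshold. Each runs from 250 bases before to 50 bases after the annotated start, is read 5′ to 3′ on the strand of the gene and comes from RefSeq (GRCr8). Capitals mark TATAAA and, in *Ccl9*, also the NF-kappa-B motif, each matched on either strand, so that TTTATA is TATAAA on the other strand. The regions are chr10:68883317-68883616 (minus strand) for *Ccl6*, chr14:13917871-13918170 (minus strand) for *Cxcl13*, chr1:237115323-237115622 (plus strand) for *Il33* and chr10:68868828-68869127 (minus strand) for *Ccl9*.
Ccl6: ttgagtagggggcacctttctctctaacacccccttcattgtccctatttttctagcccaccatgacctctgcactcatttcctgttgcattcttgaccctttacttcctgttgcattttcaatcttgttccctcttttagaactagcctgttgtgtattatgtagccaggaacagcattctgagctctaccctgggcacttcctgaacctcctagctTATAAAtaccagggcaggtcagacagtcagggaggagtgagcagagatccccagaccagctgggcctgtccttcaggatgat
Cxcl13: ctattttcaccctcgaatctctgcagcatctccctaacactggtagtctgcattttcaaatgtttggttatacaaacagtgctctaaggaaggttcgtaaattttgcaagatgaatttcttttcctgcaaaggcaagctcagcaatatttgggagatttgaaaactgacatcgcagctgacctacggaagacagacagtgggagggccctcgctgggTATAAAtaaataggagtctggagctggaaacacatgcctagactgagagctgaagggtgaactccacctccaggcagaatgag
Il33: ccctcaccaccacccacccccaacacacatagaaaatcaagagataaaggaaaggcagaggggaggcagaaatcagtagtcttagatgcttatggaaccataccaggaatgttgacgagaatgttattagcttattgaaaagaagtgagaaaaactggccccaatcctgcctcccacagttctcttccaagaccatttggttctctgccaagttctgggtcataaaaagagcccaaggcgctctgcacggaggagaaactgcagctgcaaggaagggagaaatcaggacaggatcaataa
Ccl9: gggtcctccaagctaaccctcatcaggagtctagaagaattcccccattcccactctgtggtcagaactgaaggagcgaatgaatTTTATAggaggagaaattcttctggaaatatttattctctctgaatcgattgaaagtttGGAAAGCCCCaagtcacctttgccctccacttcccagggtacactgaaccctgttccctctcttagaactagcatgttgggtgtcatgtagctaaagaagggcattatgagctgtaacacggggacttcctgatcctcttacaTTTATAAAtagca

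*Ccl6* and *Cxcl13* each hold TATAAA, starting 32 and 33 bases before the annotated start. The window of *Il33* holds none of the 4 motifs searched. In *Ccl9*, TATAAA was found at 165 bases before and at 38 and 40 bases after the start, where both strands overlap, and the NF-kappa-B motif at 106 bases before it. Read by eye, the bases ahead of the TATAAA at 40 after the *Ccl9* start resemble those ahead of the TATAAA of *Ccl6*. The annotated starts of these neighbours thus lie at different places relative to this stretch. Motif positions in their windows are therefore not comparable, and no alignment was made. *Ccl21* and *Ccr2* hold none of the 4 motifs, and *Ccl2* and *Ccl11* have no entry in the promoter table. A promoter was given for 61 of the 82 genes. Of these, 11 (18.0%) hold the NF-kappa-B motif, against 4.16% of all 27457 promoters of the same length. TATAAA was found in 15 (24.6%) against 14.3%, the AP-1 motif TGANTCA in 9 (14.8%) against 7.33%, and the STAT motif TTCNNNGAA in 7 (11.5%) against 8.68%. These are matches of letters in a window and not measured binding sites. The 11 genes with the NF-kappa-B motif include *Cxcl1*, *Cxcl2*, *Cxcl10*, *Ccl20* and *Il6*. Of the 7 genes past the threshold, only 5 had a promoter, and none of these 5 holds the motif. So few promoters are not enough to compare with the share of 18.0%.

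The eotaxin *Ccl11*, which draws eosinophils through Ccr3, was the most evenly lower of the ligands. Its log2 signals were 7.36, 7.49 and 7.62 in LBW pups 1, 2 and 3 and 8.50, 8.30 and 8.58 in ABW pups 1, 2 and 3. The groups did not overlap, and the gap between them was wider than the range within either group. The difference was -0.97 ± 0.11 (SE, n = 3 pups per group) on the log2 scale, 1.96-fold lower in LBW, with an adjusted p of 0.214 by limma. An exact permutation test of 3 pups against 3 cannot give a p under 0.1, which is the value for *Ccl11*.

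*Cxcl13*, the B cell attractant that binds Cxcr5, had log2 signals of 9.97, 9.80 and 9.93 in the LBW pups and 10.91, 10.62 and 10.39 in the ABW pups. *Ccl6*, a rodent CC chemokine made by macrophages, had 10.91, 10.93 and 10.65 in LBW against 11.29, 12.28 and 11.99 in ABW. *Il33*, a nuclear alarmin of the interleukin 1 family that is released from damaged cells, had 9.05, 9.20 and 9.50 in LBW against 9.60, 10.18 and 10.48 in ABW. In none of these 3 genes did the groups overlap, but ABW 1 lay nearest to the LBW pups for *Ccl6* and *Il33*. The differences were -0.74 ± 0.15 for *Cxcl13*, -1.02 ± 0.25 for *Ccl6* and -0.84 ± 0.24 for *Il33* (log2, SE, n = 3 per group), which are 1.67-, 2.03- and 1.79-fold lower, with adjusted p values of 0.247, 0.275 and 0.302 by limma. Together with *Ccl11*, these 4 genes passed the threshold in each of the 6 fits that left out 1 pup.

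The monocyte attractant *Ccl2* and the lymphoid chemokine *Ccl21*, the ligand of Ccr7, overlapped between the groups. *Ccl2* had log2 signals of 10.39, 10.64 and 11.39 in the LBW pups and 11.68, 11.34 and 11.40 in the ABW pups, so that LBW 3 lay at the level of ABW. *Ccl21* had 11.27, 10.85 and 11.55 in LBW and 11.48, 12.08 and 12.00 in ABW, with LBW 3 above ABW 1. The differences were -0.67 ± 0.26 for *Ccl2* and -0.63 ± 0.23 for *Ccl21* (log2, SE, n = 3 per group), 1.59- and 1.54-fold lower, with adjusted p values of 0.378 and 0.359 by limma. *Ccl2* passed the threshold in 1 of the 6 fits that left out a pup, that without LBW 3 (-0.96), and *Ccl21* in 2 of 6, those without LBW 3 and without ABW 1.

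The receptor past the threshold was *Ccr2*, which monocytes and some T cells carry and which binds Ccl2 and Ccl7. Its log2 signals were 7.71, 8.37 and 8.61 in the LBW pups and 8.84, 8.88 and 9.42 in the ABW pups. The groups did not overlap, and LBW 1 was the lowest of all pups and ABW 3 the highest. The difference was -0.81 ± 0.27 (log2, SE, n = 3 per group), 1.76-fold lower, with an adjusted p of 0.326 by limma. *Ccr2* passed in 4 of the 6 fits that left out a pup, and did not pass without LBW 1 (-0.56) or without ABW 3 (-0.63).

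**Figure D1:**
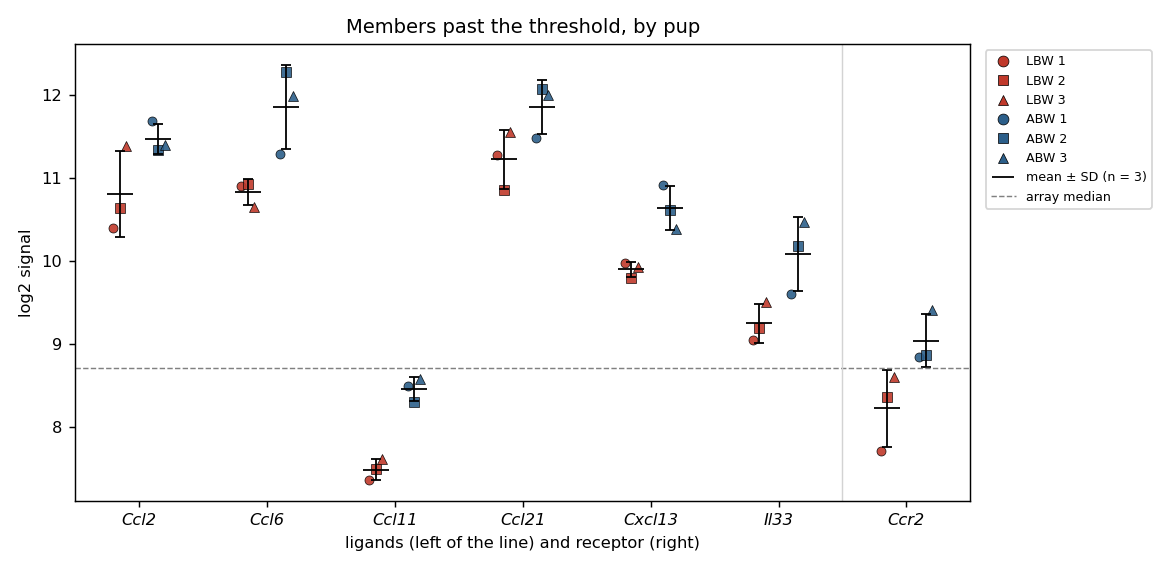
Log2 signal of the 7 genes past the threshold in each pup (points, 1 shape for each replicate number), with the mean ± SD of the 3 LBW pups in red and the 3 ABW pups in blue; the dashed line is the array median. The LBW and ABW pups are apart for *Ccl6*, *Ccl11*, *Cxcl13*, *Il33* and *Ccr2* and overlap for *Ccl2* and *Ccl21*.

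Among the ligands, 32 of 46 had a difference below 0, with a median of -0.07 on the log2 scale, and 6 of 46 (13.0%) passed in the lower direction. Among the receptors, 23 of 33 lay below 0, with a median of -0.11, and 1 of 33 (3.03%) passed. Over all features, 1.89% passed in the lower direction. Over all 82 genes, 57 (69.5%) lay below 0 with a median of -0.08, beside 55.6% and -0.02 over all features. Both sides of the signal thus had medians below 0, and the difference between ligands and receptors was not tested. By family, 5 of 25 chemokine ligands (median -0.18), 1 of 12 chemokine receptors (-0.10), 1 of 21 interleukin ligands (-0.05), 0 of 21 interleukin receptors (-0.11) and 0 of 3 antagonists or binding proteins (-0.10) passed the threshold.

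**Figure D2:**
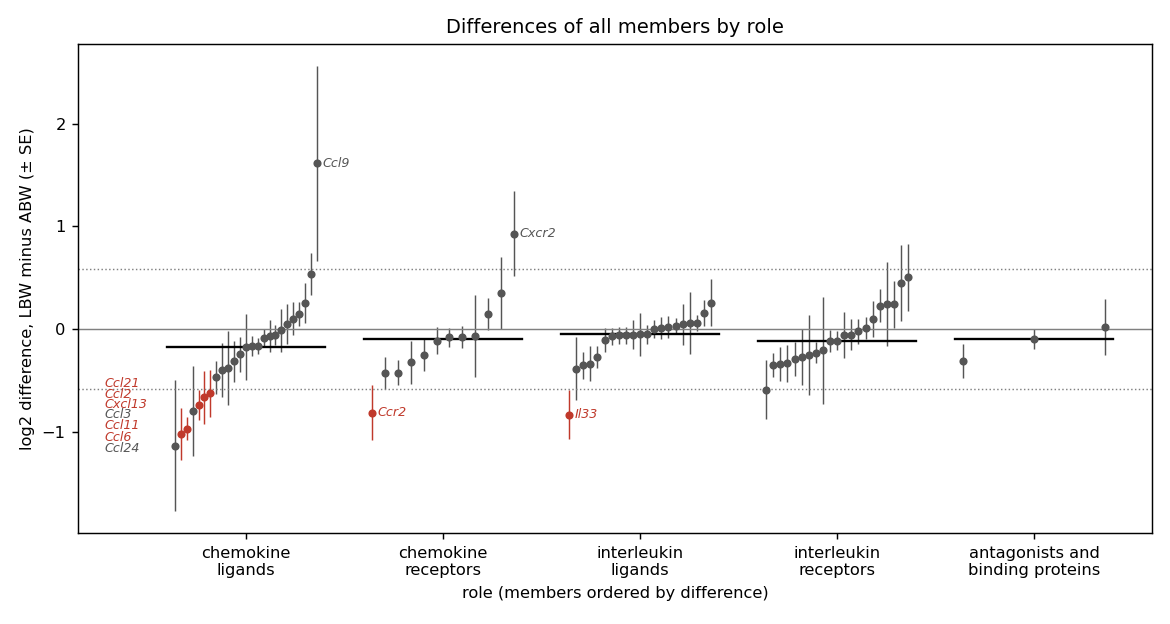
Log2 difference, LBW minus ABW, of each of the 82 genes by role, with error bars of 1 SE, the median of each role as a black line and dotted lines at a fold change of 1.5. Genes past the threshold are red, and the names at the left edge stand at about the height of their points. The 7 red points all lie below 0, and the interleukin genes other than *Il33* lie between -0.59 (*Il6r*) and 0.50 (*Il1r2*).

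The signal level of the genes differed widely, and 5 of the 6 ligands past the threshold were brighter than the array median. On these arrays the median feature had a log2 signal of 8.71 and the lower quartile was 6.19, and no detection call was used here, so that the distance of a dim signal from background is unknown. Signals of different genes come from different probes and are given as brightness, not as amounts of RNA set against each other. Of the 82 genes, 26 had a mean above the array median, 27 lay between it and the lower quartile, and 29 lay below the lower quartile. The brightest were the stromal chemokine *Cxcl12*, which binds Cxcr4 (13.63), *Ccl21* (11.54), *Ccl6* (11.34), the common gamma chain *Il2rg* (11.27) and the shared interleukin 6 receptor chain *Il6st* (11.23).

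Among the 16 ligands above the array median, 15 had a difference below 0, the exception being *Il15* (0.26), with a median of -0.39, and 5 passed the threshold. Of the 9 receptors above the array median, 7 lay below 0 with a median of -0.08, and none passed. All features above the array median had a median difference of -0.02, with 53.9% below 0 and 1.81% past the threshold in the lower direction. Of the 29 genes below the lower quartile, 15 lay below 0 with a median of -0.0030, and none passed. The interleukins *Il1a*, *Il2*, *Il4*, *Il6*, *Il12b* and *Il13* were all in this dim range, with mean log2 signals from 5.17 to 5.45, where a change of a low transcript may not have been detectable.

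**Figure D3:**
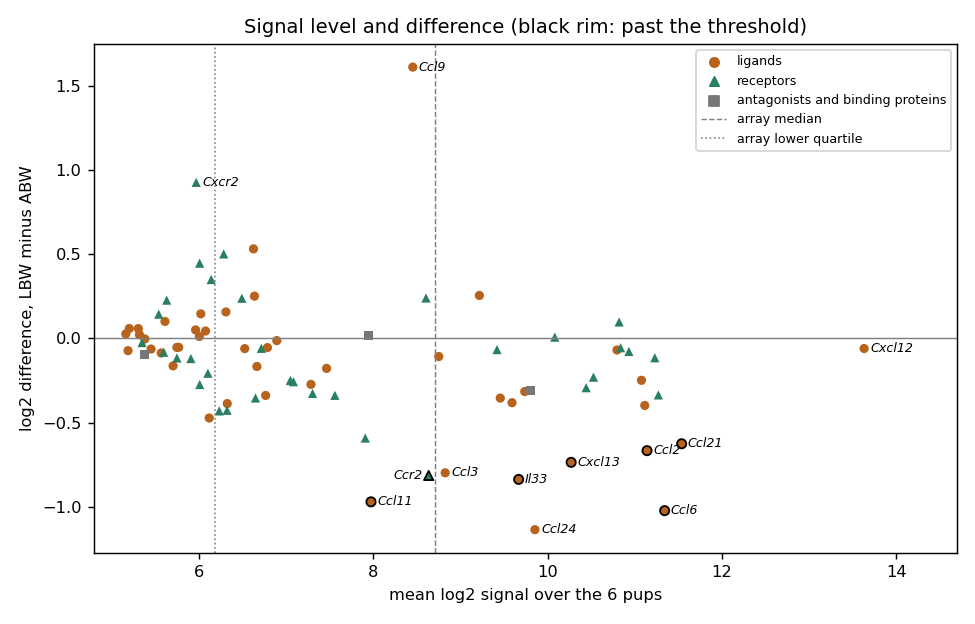
Mean log2 signal over the 6 pups (x) and log2 difference, LBW minus ABW (y), of the 82 genes; circles are ligands, triangles receptors, squares antagonists or binding proteins, and a black rim marks genes past the threshold. To the right of the array median (dashed), 15 of 16 circles lie below 0, while the points left of the lower quartile (dotted) scatter around it.

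In 15 of the 82 genes every LBW pup lay below every ABW pup, beside 10.1% of all features, and in 0 genes did every LBW pup lie above, beside 7.27%. Besides the 5 such genes past the threshold, these were the chemokines *Ccl20* and *Cxcl6*, the receptors *Ccr6*, *Cxcr3* and *Cxcr5*, the interleukins *Il12a*, *Il18* and *Il27*, and the receptor chains *Il13ra1* and *Il2ra*, with folds from 1.06 to 1.39. *Cxcr5*, which marks B cells and follicular T cells and is the receptor of Cxcl13, had log2 signals of 5.998, 6.36 and 5.98 in LBW and 6.53, 6.59 and 6.50 in ABW. *Cxcr3*, the receptor of Cxcl9, Cxcl10 and Cxcl11, had 5.91, 6.07 and 6.08 in LBW and 6.78, 6.34 and 6.23 in ABW. These receptors lay near the lower quartile of the arrays, and their folds of 1.34 and 1.35 did not reach 1.5. *Il18*, an interleukin 1 family cytokine that induces interferon gamma, had 9.38, 9.44 and 9.02 in LBW and 9.55, 9.67 and 9.70 in ABW.

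Ligands and receptors were also set side by side as 53 known pairs of genes with a row. In 28 pairs both partners had a difference below 0, where singly 32 of 46 ligands and 23 of 33 receptors lay below 0. Several pairs share a gene, and whether partners change together was not tested. Both partners passed the threshold in 1 pair, *Ccl2* and *Ccr2*, 1 partner passed in 7 pairs, and neither did in 45. The receptor of Ccl11, *Ccr3*, was dim (mean log2 signal 5.75) and differed by -0.12 ± 0.13. The receptor of Ccl21, *Ccr7*, which guides dendritic cells and T cells to lymph nodes, differed by -0.33 ± 0.21. *Il1rl1*, the receptor of Il33, had log2 signals of 10.40, 10.39 and 10.11 in LBW and 10.26, 10.71 and 10.79 in ABW, a difference of -0.29 ± 0.17. *Il1rap*, the other chain paired with Il33, lay above 0, with a difference of 0.24 ± 0.23. None of *Ccr3*, *Ccr7*, *Il1rl1* and *Il1rap* passed the threshold, while *Ccl11*, *Ccl21* and *Il33* did.

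The inflammatory CC ligand *Ccl3*, which macrophages make, differed by -0.80 ± 0.44, its relatives *Ccl4* by 0.25 ± 0.20 and *Ccl5* by -0.18 ± 0.32 (log2, SE, n = 3 per group). None of them passed the threshold. *Ccl3* had log2 signals of 7.62, 9.18 and 8.49 in LBW and 9.86, 8.91 and 8.91 in ABW, and LBW 1 was the lowest of all pups. It passed the threshold without LBW 2 (-1.17). *Ccl7*, the other ligand of Ccr2 on the list, had 8.94, 8.98 and 10.29 in LBW and 9.61, 9.89 and 9.85 in ABW. Its difference was -0.38 ± 0.36, with LBW 3 the highest of all 6 pups, and it passed without LBW 3.

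Genes that lie together on a chromosome did not all differ in the same direction. On chromosome 10, *Ccl2*, *Ccl7* and *Ccl11*, which lie within 1 Mb of a neighbour, were all below 0 and 2 of the 3 passed. In the other group of CC ligands on chromosome 10, *Ccl3*, *Ccl4*, *Ccl5*, *Ccl6* and *Ccl9*, the differences ran from -1.02 for *Ccl6* to 1.61 for *Ccl9*. *Ccl9* did not pass, and its difference was 0.46 without LBW 3. On chromosome 8, 3 of the 4 receptors *Ccr1*, *Ccr2*, *Ccr3* and *Ccr9* lay below 0, and *Ccr2* passed. The interferon-induced ligands *Cxcl9*, *Cxcl10* and *Cxcl11* on chromosome 14 were all below 0, at -0.40 ± 0.27, -0.32 ± 0.20 and -0.01 ± 0.21, and none passed.

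The largest differences among the genes that did not pass varied widely between the LBW pups. *Ccl9*, a chemokine of macrophages and osteoclasts, had log2 signals of 8.23, 7.98 and 11.57 in LBW pups 1, 2 and 3 and 7.08, 8.21 and 7.65 in ABW. LBW 3 stood far above all other pups. The difference of 1.61 ± 0.95 (adjusted p = 0.539 by limma) was 0.46 without LBW 3. *Ccl24*, another eotaxin, had 9.91, 9.98 and 7.97 in LBW and 9.50, 10.77 and 10.999 in ABW. Here LBW 3 stood far below, and the difference of -1.14 ± 0.64 (adjusted p = 0.522 by limma) was -0.48 without it. *Cxcr2*, the receptor by which neutrophils follow Cxcl1 and Cxcl2, had 6.46, 5.57 and 7.28 in LBW and 5.36, 5.82 and 5.35 in ABW. LBW 1 and LBW 3 were high while LBW 2 lay among the ABW pups, and the difference was 0.93 ± 0.41 (adjusted p = 0.432 by limma) with all 6 pups and 1.36, past the threshold, without LBW 2. The interleukin 1 decoy receptor *Il1r2*, also known from neutrophils, went the same way, with 7.02, 5.79 and 6.80 in LBW and 5.89, 5.92 and 6.30 in ABW. Its difference was 0.50 ± 0.32, and 0.88, past the threshold, without LBW 2. The mean log2 signal of *Cxcr2* (5.97) lay below the lower quartile of the arrays. *Cxcr1*, which like Cxcr2 binds Cxcl6, differed by -0.25 ± 0.16 and did not pass.

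**Figure D4:**
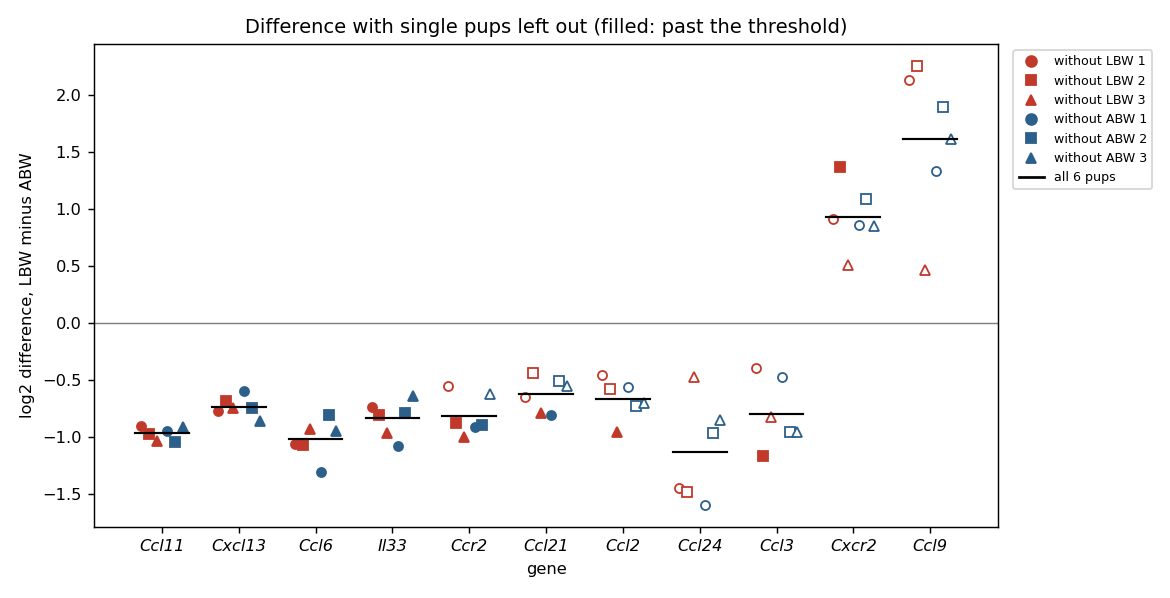
Log2 difference, LBW minus ABW, of 11 genes with all 6 pups (black line) and with each pup left out (red for LBW, blue for ABW; filled where the threshold was passed). The filled symbols of *Ccl11*, *Cxcl13*, *Ccl6* and *Il33* number 6 of 6, whereas *Ccl9* and *Ccl24* move toward 0 without LBW 3.

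Among the interleukins and their receptors other than *Il33*, no gene passed the threshold. The largest differences below 0 were those of *Il6r*, the ligand-binding chain for interleukin 6, with log2 signals of 7.78, 7.41 and 7.65 in LBW and 7.67, 8.11 and 8.83 in ABW (-0.59 ± 0.29), and of *Il7*, a lymphocyte survival factor (-0.39 ± 0.31). *Il6r* passed without ABW 1 (-0.86). The interleukin 2 receptor chains *Il2ra*, *Il2rb* and *Il2rg* differed by -0.35 ± 0.11, -0.34 ± 0.17 and -0.34 ± 0.18. *Il6* itself had 4.92, 6.04 and 5.05 in LBW and 5.04, 5.38 and 5.41 in ABW, with the highest and lowest values both in LBW pups. The largest differences above 0 were, among the receptors, those of *Il1r2* and of *Il9r*, the interleukin 9 receptor (0.45 ± 0.37), and among the ligands those of the T cell and natural killer cell growth factor *Il15* (0.26 ± 0.23) and of the interleukin 23 subunit *Il23a* (0.16 ± 0.13). The antagonist *Il1rn* differed by 0.02 ± 0.27, the interleukin 18 binding protein *Il18bp* by -0.31 ± 0.17 and the soluble interleukin 22 receptor *Il22ra2* by -0.10 ± 0.10.

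The chemokine ligand with the largest difference above 0 after *Ccl9* was *Ccl25*, a thymic and gut chemokine that binds Ccr9. It had log2 signals of 6.47, 7.10 and 7.11 in LBW and 6.57, 6.15 and 6.37 in ABW, and its difference of 0.53 ± 0.20 did not reach a fold change of 1.5. *Ccr9* differed by 0.14 ± 0.16 and *Ccr4*, a receptor of Th2 cells, by 0.35 ± 0.35. The bright pair *Cxcl12* and *Cxcr4*, which holds progenitor cells in their niche, differed by -0.06 ± 0.10 and -0.08 ± 0.11.

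Other genes of these pathways, outside the 82, were taken from lists. Of 7 atypical and other chemokine genes with a row, 1 passed in the lower direction, the platelet chemokine *Ppbp* (-0.67), at a dim level. Of 14 JAK-STAT genes, 1 passed in the lower direction, *Stat4* (-0.62), which transmits interleukin 12 signals. Its mean log2 signal, 6.01 in LBW and 6.62 in ABW, was near the lower quartile of the arrays. None passed among 11 cytokines and receptors that share interleukin receptor chains, 8 genes of interleukin 1 receptor and NF-kappa-B signalling, and 11 of chemokine receptor signalling. No gene of these lists passed in the higher direction. Listed genes without a row could not be tested. Rows were found for 8 of 22 listed genes of interleukin 1 receptor and NF-kappa-B signalling and for 14 of 23 of JAK-STAT signalling.

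The labelled tissue was checked by 8 skeletal muscle markers, among them *Acta1* (log2 signals from 15.15 to 15.41) and *Ckm* (14.83 to 15.06), which were near the top of the scale in all 6 pups, and none passed the threshold. In bulk muscle, fewer cells of a type and less RNA per cell cannot be told apart. Of 9 macrophage and monocyte markers, including *Cd68* and *Csf1r*, none passed, with a median difference of -0.08. Their summed linear signal was 29514 to 32436 in LBW and 26750 to 36134 in ABW, with ABW 1 the lowest of all pups. Of 8 T cell markers, *Cd4*, which rat monocytes also carry, passed in the lower direction, and 6 of the 8 lay below 0, while *Cd3g* (0.25) and *Trat1* (0.37) lay above. Their sum, to which the bright *Cd4* and *Cd2* give the most, was 2062 to 2970 in LBW and 3159 to 3365 in ABW, but the mean of their deviations, in which each gene counts alike, overlapped between the groups. Of 10 interferon response genes, 3 passed in the lower direction, with sums of 2012 to 2244 in LBW and 2688 to 2845 in ABW.

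Some markers of bone and of neutrophils were higher in LBW pups. Of 7 osteoblast markers, 5 passed in the higher direction, with summed signals of 34681, 4101 and 56061 in LBW pups 1, 2 and 3 and 1941 to 2446 in ABW. Of 5 neutrophil markers, *S100a8*, *S100a9* and *Mmp8* passed in the higher direction, with sums of 13752, 7385 and 11990 in LBW and 5025 to 5594 in ABW. The neutrophil markers *Lcn2* (0.12) and *Prtn3* (-0.07) did not pass. LBW 2 lay nearest to ABW in both sums. Among 5 osteoclast markers 2 and among 4 cartilage markers 1 passed in the higher direction. Of 7 mast cell markers, *Mcpt1* (0.77) passed in the higher direction, but 5 of the 7 lay below 0, with a median of -0.19. All 5 adipocyte markers lay below 0 with a median of -0.94 (-0.31 without LBW 3), and 1, *Lep*, passed in the lower direction. Their summed signals in LBW pups 1, 2 and 3 were 41592, 42248 and 34532. In ABW pups 1, 2 and 3 they were 42032, 55471 and 53228, so that ABW 1 lay at the level of LBW 1 and LBW 2. None passed among 2 B cell, 5 NK cell, 3 dendritic cell, 3 endothelial, 4 fibroblast and 3 erythroid markers. Marker counts cover only genes with a row, which were 5 of 13 listed for neutrophils and 2 of 7 listed for B cells. The part of these markers in the differences of the chemokine and interleukin genes was not tested.

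Without LBW 2, 6 of the 82 genes passed in the lower direction (2.24% of all features) and 2, *Cxcr2* and *Il1r2*, in the higher (3.64%). Without LBW 3, 8 genes passed in the lower direction (2.54% of all features) and 1, *Il1rapl1*, in the higher (2.11%). Of the 7 genes past the threshold with all pups, 5 passed without LBW 2 and 7 without LBW 3. Each LBW pup was the lowest of all 6 in 20 of the 82 genes, and LBW 3 was the highest in 15, LBW 1 and LBW 2 in 6 each and the ABW pups in 18 to 19.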

How the data were processed

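RNA of 6 pups (3 LBW, 3 ABW) was measured on 1 NimbleGen array per pup. The authors deposited log2 values for 26419 transcripts, for which the paper's methods name R scripts of their own with Bioconductor. The submitters' processing notes name RMA, whose version and settings are not given in the sources used here. Arrays carry no count depth, and their number limits the precision.

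A symbol was given to 9747 rows through a RefSeq table (GRCr8), and rows of a symbol were averaged, which left 26299 features. The array follows another build, so that only RefSeq promoters carry coordinates. LBW and ABW were compared with limma 3.58.1 in R 4.3.3 (lmFit, eBayes without trend, 2-sided), with Benjamini-Hochberg adjustment over all features, and tested on simulated data. The threshold, from the study's methods, was an unadjusted p under 0.05 together with a 1.5-fold change in either direction. An exact permutation test was added for single genes. A gene that the rule covers is not reported here and is left out of all counts of members. Members, gene lists and alternatives were chosen with earlier results of these data known. The genes named are those past the threshold, the 2 largest rises and falls and the 2 brightest of each role, and the partners of genes past the threshold; the other genes named were chosen after their values were seen.

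Alternative fits used a block for the replicate number, left out single pups or took quantile normalization or centring on the array median. Others left out the dimmest 25% of features or took an intensity trend, array weights, every row on its own or a fold change of at least 2. A Student's t-test without variance moderation was also run, which the paper's general statistics name beside ANOVA. The paper's array methods name no test. Same-numbered pups deviated together with correlations of 0.0874, 0.104 and 0.0552, so that the numbers do not pair them.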

Additional observations from a re-analysis of the deposited data

How the results depend on the processing

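With 3 pups per group, none of the 82 genes passed after adjustment in any fit made, and which genes passed without it depended on the test and on single pups. The Student's t-test, which may not be the test the paper used for its arrays, gave 4 genes and 584 of all features. The 4 genes, *Ccl6*, *Ccl11*, *Cxcl13* and *Il33*, were all lower. A fold change of at least 2 left 1 gene, *Ccl6*, which was lower, and 335 features. Leaving out single pups gave 4 to 9 genes, of which 4 to 8 were lower and 0 to 2 higher, and 798 to 1546 features. Without LBW 2, 125 of all features passed an adjusted p of 0.05 by limma, against 0 with all pups, and none of them was a chemokine or interleukin gene of the 82, of which the lowest, *Ccl11*, had an adjusted p of 0.0723. With an intensity trend, 1 gene, *Cxcr2*, also passed in the higher direction. Quantile normalization, centring on the array median, leaving out the dimmest 25%, array weights and every row on its own gave the same 7 genes as the fit reported.

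The median difference was -0.25 over the 53 genes that remained without the dimmest 25%, -0.27 for the ligands and -0.24 for the receptors. Leaving out single pups gave medians of -0.132 to -0.0865 for all genes, -0.102 to -0.0795 for ligands and -0.165 to -0.0832 for receptors.

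Small differences turned sign without a single pup. The genes given here are examples and not all that did so. Over the fits without 1 pup, *Il6* ran from -0.29 to 0.27, *Cxcl11* from -0.16 to 0.16 and *Il1rapl1* from -0.12 to 0.73. The range over the fits without 1 pup was -0.47 to 0.16 for *Ccl5* (above 0 without LBW 3), -0.467 to 0.30 for *Ccr1* (above 0 at 0.30 without LBW 2, 0.03 without ABW 2 and 0.06 without ABW 3), -0.23 to 0.0069 for *Ccr3* (without ABW 2), -0.081 to 0.61 for *Ccr4* (below 0 without LBW 3), -0.16 to 0.011 for *Cxcr4* (above 0 without ABW 1), -0.019 to 0.40 for *Il1rap* (below 0 without ABW 1), -0.20 to 0.34 for *Il1rn* (-0.20 without ABW 3, -0.09 without ABW 2, -0.03 without LBW 1) and -0.0059 to 0.75 for *Il9r* (below 0 without LBW 1). The cause was not tested.

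With the replicate number as a block, 6 of the 7 genes passed, *Ccl2* not among them, and 1230 features, 0 after adjustment. The numbers are shared by name only, with correlations of same-numbered pups from 0.0552 to 0.104.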
